A study of Mus musculus with 12 samples.

Results

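The triggering receptors expressed on myeloid cells (TREM) and their adaptor were followed in bone marrow-derived macrophages, the macrophages grown in culture from bone marrow, of C57BL/6 mice. The 6 genes are *Trem1*, *Trem2*, *Trem3*, *Treml2*, *Treml4* and *Tyrobp*. They were taken by symbol from a table of 50559 genes. The family was chosen by symbol with its measured difference between house dust mite (HDM) and vehicle libraries already known, so those values are given as a description, with no test. The cells were exposed for 1 h to HDM allergen or to vehicle, and each treatment has 6 libraries, numbered 1 to 6. No deletion, sex or age is named for either group, and nothing in the labels ties a library to its own mouse or dish, so the spread between libraries may be technical.

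Activating TREM receptors carry 1 immunoglobulin-like domain outside the cell and have short tails with no signalling motif of their own. They pair inside the membrane with DAP12, the product of *Tyrobp*, whose tail holds an immunoreceptor tyrosine-based activation motif that recruits the kinase SYK. TREM1 is known for amplifying inflammatory responses of neutrophils, monocytes and macrophages, and TREM2 for binding lipids and apolipoproteins in macrophages, microglia and osteoclasts.

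Counted reads per library ran from 19.7 to 119.7 M. Levels are CPM, counts per M reads after TMM scaling, a correction for differences in library make-up. All 11 macrophage markers examined were detected, at mean levels from 82.6 CPM for *Mertk* to 11560 CPM for *Lyz2*. Markers of neutrophils were close to absent apart from *Mmp8* and *S100a8*, with 10 of 12 under 1 CPM, *Retnlg* at 0 reads and *Ly6g* at 2 reads in all. Likewise 6 of 6 dendritic cell, 5 of 5 T and NK cell and 5 of 5 erythroid markers lay under 1 CPM, as did 4 of 5 B cell markers, all but *Cd79b*, and 4 of 5 platelet markers, all but *Pf4*. The libraries numbered 5 and 6, of both treatments, stood apart from the other 8 on the first principal component, which held 41.0% of the variance. What the numbers stand for is not given, and results that differ between these sets are given for each set.

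*Trem1* was the 1 gene of the 6 whose HDM and vehicle libraries did not overlap. The other 5, *Trem2* and *Tyrobp* at high level and *Trem3*, *Treml2* and *Treml4* at low level, had overlapping groups and log2 fold changes between -0.08 and 0.16. All 6 genes passed the filter on low counts. At an adjusted p under 0.05 in edgeR's quasi-likelihood test, 1 of the 6 was called, *Trem1*, where 5.37% of all 13530 tested genes were called, 2.9% higher and 2.47% lower. These were 393 rises and 334 falls, against 360 and 408 with upper-quartile factors and 347 and 413 with total library size, so the more frequent direction turns with the scaling. Because the genes were picked with this contrast known, nothing is read from that count, and the call of *Trem1* is not offered as a test of it. The median log2 fold change was 0.00 over the 6 genes and 0.00 over all tested genes.

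The sequences before the start sites of the receptor that differed and of the abundant receptor that did not are shown first, since they set the 2 genes side by side. RefSeq's promoter table (GRCm38.p6) was used for *Trem1*, *Trem2* and *Treml4*, and not for *Trem3*, *Treml2* and *Tyrobp*. The windows below are the 250 bases before the start on the plus strand, at chr17:48232489-48232738 for *Trem1* and chr17:48346151-48346400 for *Trem2*, and hold no annotated exon of GENCODE M21. Capitals mark matches, on either strand, to 4 motifs: the PU.1 core GAGGAA, the AP-1 site TGANTCA, the cAMP response element TGACGTCA and the kappaB motif.
Trem1: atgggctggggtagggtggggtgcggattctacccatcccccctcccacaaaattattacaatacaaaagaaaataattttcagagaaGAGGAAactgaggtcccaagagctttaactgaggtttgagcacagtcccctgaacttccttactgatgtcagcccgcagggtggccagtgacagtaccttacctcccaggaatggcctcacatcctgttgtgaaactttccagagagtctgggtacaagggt
Trem2: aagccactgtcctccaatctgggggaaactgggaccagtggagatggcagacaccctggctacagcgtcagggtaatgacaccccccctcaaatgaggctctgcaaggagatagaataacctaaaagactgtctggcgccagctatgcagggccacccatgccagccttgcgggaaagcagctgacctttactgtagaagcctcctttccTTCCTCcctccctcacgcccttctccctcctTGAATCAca

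The *Trem1* window held 1 match, to the PU.1 core, beginning 162 bases before the start. The *Trem2* window held a PU.1 match beginning 40 bases before the start, on the minus strand, and an AP-1 match beginning 9 bases before it. No matches overlapped in these windows. The *Treml4* window, not printed, held 2 PU.1 matches. Of 32851 promoter windows of the same length, 23.3% held the PU.1 core, 6.75% the AP-1 site, 3.9% the kappaB motif and 1.55% the cAMP response element. A match describes letters only and shows no binding.

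*Trem1*, the receptor known as an amplifier of inflammation, had few transcripts in vehicle cells and about 3-fold more after 1 h of HDM. In the vehicle libraries it lay at 11.0, 11.3, 5.88, 7.27, 10.3 and 12.3 CPM in numbers 1 to 6. In the HDM libraries it lay at 34.9, 31.7, 26.7, 22.8, 38.5 and 39.4 CPM. The lowest HDM library, number 4, was above the highest vehicle library, number 6. The 2 groups were separate in 4.39% of all tested genes and separate with HDM higher in 2.32%.

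The mean of *Trem1* was 32.3 ± 6.60 CPM with HDM and 9.66 ± 2.51 CPM with vehicle (SD, n = 6 each), from 10116 and 2461 reads. The log2 fold change was 1.74 ± 0.19 SE, a fold of 3.35 with a 95% interval of 2.51 to 4.47. Among all tested genes, 62 had a larger log2 fold change. In bulk RNA, more cells with the transcript and more transcript per cell cannot be told apart. Neutrophils are also known to express *Trem1*. Their summed markers ran from 43.5 to 114.2 CPM with HDM and from 43.1 to 103.8 CPM with vehicle. None of the 4 that passed the filter was called. The sum was mostly *Mmp8*, at a mean of 65.4 CPM, while *Ly6g* had 2 reads. It ran from 43.1 to 62.6 CPM in numbers 1 to 4 and from 101.3 to 114.2 CPM in numbers 5 and 6. A part of neutrophils in the *Trem1* difference was not tested.

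Within each library number the fold of *Trem1* was 3.18, 2.80, 4.53, 3.14, 3.76 and 3.21. HDM was higher in 6 of 6 numbers, a pattern that 8.98% of tested genes shared. Number 3 had the largest fold and also the lowest vehicle level, while its HDM level was the second lowest of the 6. The level itself varied with the number in both treatments alike. Numbers 3 and 4 had the lowest *Trem1*, with means of 6.58 CPM in vehicle and 24.7 CPM in HDM. Numbers 1 and 2 were at 11.1 and 33.3 CPM and numbers 5 and 6 at 11.3 and 39.0 CPM. With the number as a block in the model the log2 fold change was 1.73 ± 0.06 SE, a smaller error than without it.

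**Figure D1:**
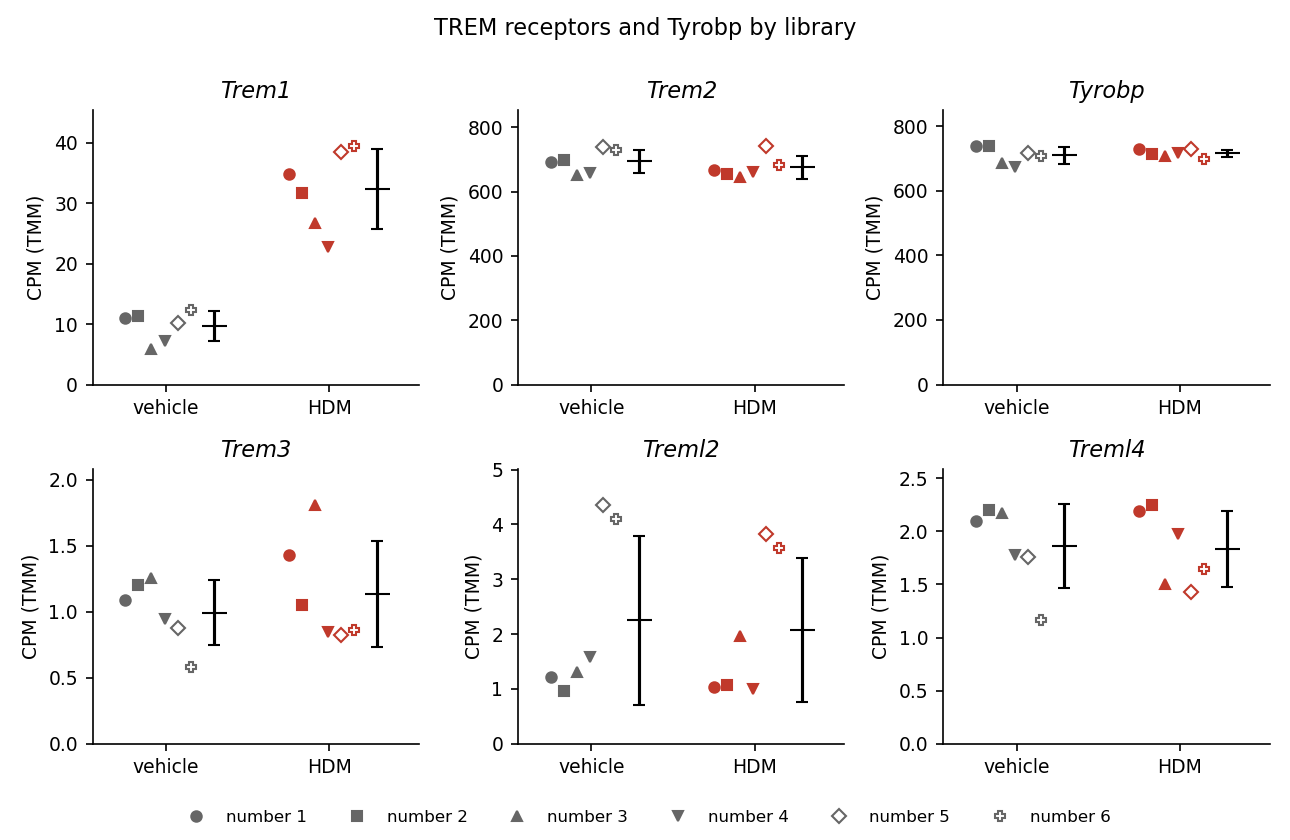
Levels of the 6 genes in every library, in CPM after TMM scaling on linear axes from 0, by treatment. Each symbol is a library number, open symbols are numbers 5 and 6, and the bar at the right of each group is the mean with its SD (n = 6). The HDM libraries of Trem1 lie between 22.8 and 39.4 CPM, all above the vehicle libraries, and Treml2 is high in numbers 5 and 6 under both treatments.

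*Trem2*, the lipid-binding receptor, was abundant and overlapped between treatments. It ranged from 653 to 738 CPM in vehicle libraries, with a median of 695 CPM. The range with HDM was 645 to 741 CPM, with a median of 664 CPM. Numbers 5 of both treatments were the highest libraries of their groups. The log2 fold change was -0.04 ± 0.04 SE, and its 95% interval ran from a fold of 0.908 to 1.04. Within numbers the log2 ratio lay between -0.10 and 0.01, lower with HDM in 4 of 6.

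*Tyrobp*, which encodes the shared adaptor DAP12, was the steadiest of the 6 genes. It ranged from 673 to 738 CPM in vehicle libraries (median 712 CPM) and from 699 to 729 CPM in HDM libraries (median 715 CPM). The HDM libraries all fell inside the vehicle range. Their coefficient of variation was 1.63%, against 3.81% in vehicle. The log2 fold change was 0.01 ± 0.03 SE, with a 95% interval from a fold of 0.961 to 1.06. The intervals reach down to a change of -9.15% for *Trem2* and up to one of 5.90% for *Tyrobp*.

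*Trem3*, an activating receptor of mice that also pairs with DAP12, was near the limit of what these libraries count. It had 611 reads in all 12 libraries, and from 17 in vehicle library 5 to 172 in HDM library 1. Its level ran from 0.581 to 1.25 CPM in vehicle (median 1.02) and from 0.823 to 1.81 CPM with HDM (median 0.957). The groups overlapped between 0.823 and 1.25 CPM. The 17 reads of vehicle library 5 alone carry an exact 95% Poisson interval of 0.513 to 1.41 CPM, which covers counting error only. The log2 fold change was 0.16 ± 0.23 SE (95% interval a fold of 0.780 to 1.61), higher with HDM in 3 of 6 numbers.

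*Treml4*, a receptor that binds dead cells, had 1070 reads in all. It ranged from 1.16 to 2.20 CPM in vehicle (median 1.94) and from 1.42 to 2.25 CPM with HDM (median 1.81). No group stood above the other. The log2 fold change was -0.02 ± 0.17 SE (95% interval a fold of 0.760 to 1.29), higher with HDM in 4 of 6 numbers.

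*Treml2*, a TREM-like receptor of B cells and myeloid cells, varied more with the library number than any other of the 6 genes. Over vehicle libraries it ran from 0.966 to 4.35 CPM (median 1.44), and with HDM from 0.988 to 3.83 CPM (median 1.52). Numbers 5 and 6 held the upper end in both treatments, at 4.35 and 4.09 CPM in vehicle and at 3.83 and 3.57 CPM with HDM. Numbers 1 to 4 ran from 0.966 to 1.59 CPM in vehicle and from 0.988 to 1.96 CPM with HDM. The mean of numbers 5 and 6 was 3.33 times that of numbers 1 to 4 in vehicle and 2.92 times in HDM libraries.

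For HDM over vehicle, *Treml2* had a log2 fold change of -0.08 ± 0.49 SE, with a 95% interval from a fold of 0.445 to 2.01. With the number as a block the value was -0.12 ± 0.13 SE. The unblocked interval reaches past a 2-fold change in both directions. *Trem3* and *Treml4* leaned the other way, with means in numbers 5 and 6 of 0.651 and 0.708 times those in numbers 1 to 4 in vehicle, and 0.658 and 0.775 times with HDM. *Tyrobp* was at 1.00 times in both treatments, *Trem2* at 1.09 and 1.08 times, and *Trem1* at 1.27 and 1.34 times.

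Cell type markers also differed between these sets of numbers. The 6 osteoclast markers summed to 451 to 498 CPM in numbers 5 and 6 and to 169.6 to 247 CPM in numbers 1 to 4. That sum was carried by *Atp6v0d2* (408 against 169.9 CPM), with *Calcr* at 0 reads. *Acp5* (38.5 against 23.9), *Ctsk* (19.95 against 13.37) and *Dcstamp* (2.46 against 1.44 CPM) were also higher in numbers 5 and 6, and *Ocstamp* was lower (0.17 against 0.24 CPM). The 12 neutrophil markers summed to 101.3 to 114.2 and to 43.1 to 62.6 CPM, carried by *Mmp8* (101.3 against 47.4 CPM). *S100a8* was also higher in numbers 5 and 6 (5.35 against 3.8 CPM). Among those under 1 CPM, *Cxcr2* was higher there and *S100a9*, *Ngp* and *Ltf* were lower. The 5 B cell markers went the opposite way, at 1.06 to 1.55 and 3.15 to 5.13 CPM, carried by *Cd79b*, while *Pax5* had 1 read. The 5 platelet markers also went the opposite way, at 97.2 to 109.5 and 167.8 to 197.8 CPM, carried by *Pf4* (102 against 183 CPM), with *Gp1bb* at 0 reads. The 11 macrophage markers summed to 17570 to 18070 CPM in numbers 5 and 6 and to 18360 to 22380 CPM in numbers 1 to 4. That sum was mostly *Lyz2* (10610 against 12030 CPM), and *Adgre1* was at 1458 against 2640 CPM. Not all went this way: *Csf1r* (1562 against 1484), *Cd68* (1768 against 1370) and *Mrc1* (319 against 290 CPM) were higher in numbers 5 and 6. The rest of the macrophage markers were lower there. The part of these marker differences in that of *Treml2* was not tested.

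**Figure D2:**
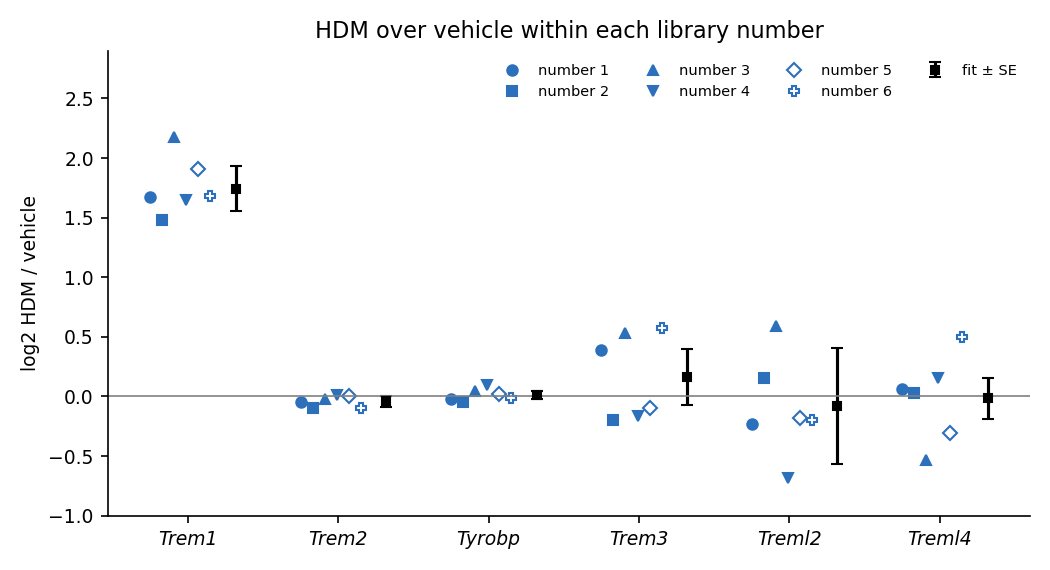
Log2 ratio of HDM to vehicle CPM within each library number (blue symbols, open for numbers 5 and 6), with the log2 fold change of the fit and its SE (black squares), for the 6 genes. Trem1 lies between 1.48 and 2.18 in all 6 numbers, and the ratios of each of the other 5 genes fall on both sides of 0.

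To compare genes with each other, levels were divided by the length of the merged exons of coding transcripts in GENCODE M21, from 597 bases for *Tyrobp* to 4606 bases for *Treml2*. In vehicle libraries the order of levels was *Tyrobp* at 1189 ± 45.3, *Trem2* at 608 ± 31.0, *Trem1* at 3.22 ± 0.839, *Treml4* at 1.07 ± 0.225, *Trem3* at 0.998 ± 0.249 and *Treml2* at 0.489 ± 0.334 CPM per kb (SD, n = 6). The ranges of *Tyrobp*, *Trem2* and *Trem1* were separate from their neighbours. *Treml4* and *Trem3* overlapped, and so did *Trem3* and *Treml2*. With the shortest transcript as the length, *Treml2* passed *Trem3* and 4 of the 6 places stayed.

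The level of *Trem2* per kb was 188 times that of *Trem1* in vehicle libraries and 54.7 times with HDM. *Trem1* with HDM, at 10.8 ± 2.20 CPM per kb, was 9.44 times *Trem3*, the next receptor. The summed level of the 5 receptors per kb was 0.516 ± 0.0223 of that of *Tyrobp* in vehicle and 0.504 ± 0.0240 with HDM, so adaptor transcripts outnumbered receptor transcripts of this family in every library (range of the ratio 0.486 to 0.545). *Trem1* made up 0.522% ± 0.119 of the summed receptor level in vehicle (0.341 to 0.635%) and 1.78% ± 0.310 with HDM (1.30 to 2.15%). *Trem2* made up 99.1% ± 0.0967 and 97.8% ± 0.316. The receptor transcripts thus remained almost entirely *Trem2* in both treatments, and the *Trem1* shares of the groups did not overlap. These are transcript ratios on the scale of CPM per kb and say nothing of protein.

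**Figure D3:**
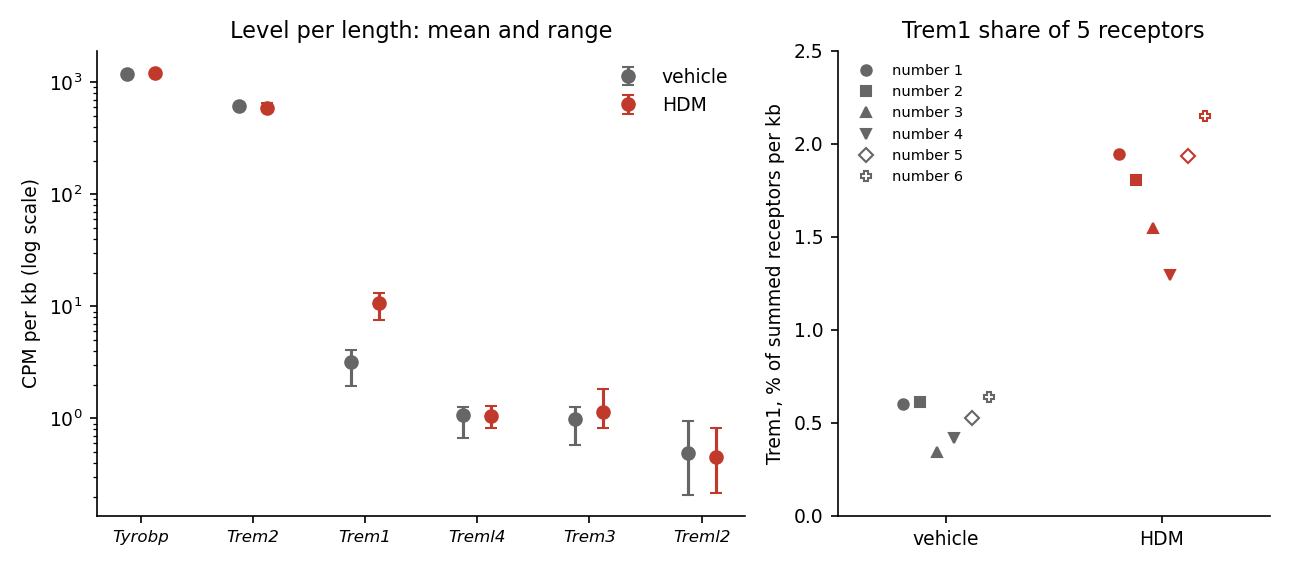
Left, level per length of the 6 genes in CPM per kb on a log axis, as the mean with the range over 6 vehicle (grey) and 6 HDM (red) libraries. Right, the share of Trem1 in the summed level per kb of the 5 receptors in each library, from 0.341 to 0.635% in vehicle and from 1.30 to 2.15% with HDM.

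Genes with the most similar profile over the 12 libraries were found by the root mean square difference of log2 CPM, each gene centred on its own mean, among 10789 other genes of at least 1 CPM. For *Trem1* they were *Srgn*, which encodes the proteoglycan serglycin (0.210), *Nlrp3*, which encodes the inflammasome sensor (0.307), and *Csrnp1*, a nuclear factor gene (0.309), where the median over all genes was 0.952. *Srgn* went from 20.9 to 57.2 CPM, *Nlrp3* from 74.1 to 193 CPM and *Csrnp1* from 44.5 to 158 CPM. Their log2 fold changes for HDM over vehicle were 1.46, 1.39 and 1.84. The profiles span both treatments, so for *Trem1* the measure mainly finds genes with a similar difference between treatments. Their closeness is therefore no result separate from the *Trem1* difference already known. For *Treml2* they were *Scd1*, a fatty acid desaturase gene (0.183), *Vcam1*, an adhesion molecule gene (0.240), and *Nyap2* (0.259), against a median of 0.838. *Treml2* varied mainly with the library number, so for *Treml2* the measure mainly finds genes that vary with the number in a similar way. The nearest to *Trem2* were *Sec61a1*, *Golga2* and *Mesd* (0.0205 to 0.0265, median 0.126) and the nearest to *Tyrobp* were *Hyou1*, *Ago1* and *Spg7* (0.0247 to 0.0248, median 0.116). *Trem2* and *Tyrobp* varied little, with SDs of log2 CPM within groups of 0.073 and 0.0424. The neighbours lay closer than those SDs, so they also share part of the small differences between libraries. *Slc6a19*, *Foxd2os* and *Dynlt1a* were nearest to *Trem3* (0.183 to 0.229, median 0.423), and *Sptb*, *Tom1l1* and *Tns4* to *Treml4* (0.122 to 0.134, median 0.311), at levels where counting error adds to every difference.

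Of the other genes of the TREM cluster listed, *Treml1*, the platelet member of the family, was in the table. It was at 1.44 ± 0.306 CPM with HDM and 1.65 ± 0.212 CPM with vehicle (log2 fold change -0.19 ± 0.15 SE, adjusted p = 0.739 by edgeR).

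Downstream of DAP12, SYK and Src-family kinases act on phospholipase C gamma, phosphoinositide 3-kinase and the CARD9, BCL10 and MALT1 complex. Of 46 tested genes of this signalling list, 2 rose and 0 fell by edgeR, 4.35% against 5.37% of all tested genes. In the falling direction 1 gene had an unadjusted p under 0.05, and DESeq2 and limma-voom called 0. *Pik3r1*, which encodes the regulatory subunit of phosphoinositide 3-kinase, rose by 0.18 ± 0.03 SE on the log2 scale, with 103 ± 3.27 CPM in vehicle and 116.9 ± 3.47 CPM in HDM libraries (edgeR adjusted p = 0.00286), higher in 6 of 6 numbers. *Bcl10*, the adaptor between CARD9 and MALT1, rose from 55.8 ± 2.75 to 64.2 ± 2.46 CPM (0.20 ± 0.04 SE, adjusted p = 0.00594), higher in 5 of 6. *Syk* was at 599 ± 61.1 CPM with HDM and 600 ± 62.0 CPM with vehicle (adjusted p = 1.00), and *Hcst*, the gene of the related adaptor DAP10, at 4.76 ± 1.04 and 5.04 ± 0.860 CPM (adjusted p = 0.993). *Pik3cd* (0.12 ± 0.03 SE) and *Sos1* (0.13 ± 0.05 SE) missed the threshold at adjusted p = 0.0729 and 0.213. DESeq2 called 3 rises in the list, *Pik3cd* being the third (adjusted p = 0.0298).

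With the number as a block, 9 of these 46 genes were called, 8 up and 1 down, where 14.7% of all tested genes were called, 7.9% up and 6.81% down. The fall was that of *Pik3ap1* (-0.07 on the log2 scale, adjusted p = 0.0265 with the block), named after its value was seen. *Pik3cd* and *Sos1* were among the 8 (adjusted p = 0.0145 and 0.00711 with the block). Without the libraries numbered 5 and 6, 7.88% of 13650 tested genes were called, 5% up and 2.88% down, and the list had 4 calls: *Pik3r1*, *Bcl10*, *Pik3cd* and, named after its value was seen, *Pik3cb* (0.16, adjusted p = 0.0125). The median log2 fold change of the list without the block was -0.01.

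Other receptors that use DAP12 or the related Fc receptor gamma chain gave 0 calls among 17 tested genes, where 5.37% of all tested genes were called. DESeq2 and limma-voom also called 0. The list had 1 gene at an unadjusted p under 0.05, *Clec4e*, which encodes the C-type lectin Mincle. It lay between 17.5 and 48.7 CPM in vehicle and between 29.2 and 76.4 CPM with HDM, overlapping groups with HDM higher in 6 of 6 numbers (log2 fold change 0.77 ± 0.34 SE, edgeR adjusted p = 0.312). With the block 3 of the 17 were called, where 14.7% of all tested genes were called. *Clec4e* was at 0.78 (edgeR adjusted p = 5.87e-11) and *Cd300lb* at -0.16 (adjusted p = 5.76e-05, and 0.479 without the block). The third was *Clec4d*, named after its value was seen, at 0.10 (adjusted p = 0.00357, and 0.588 without the block). Without the libraries numbered 5 and 6, where 7.88% of tested genes were called, the list had 2 calls, *Clec4e* (0.83, adjusted p = 1.31e-05) and *Cd300lb* (-0.18, adjusted p = 0.00322). *Fcer1g*, the gamma chain gene, was at 386 ± 28.5 and 385 ± 24.6 CPM (adjusted p = 1.00). The median log2 fold change of the list was 0.02.

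TREM1 and TREM2 are known to be shed from the cell surface by metalloproteases, and the stub of TREM2 to be cut by gamma-secretase. In the list of ligands, partners and shedding enzymes, 1 of 19 tested genes rose and 1 fell, 10.5% called against 5.37% of all tested genes (2.9% up and 2.47% down). *Rhbdf2*, which encodes iRhom2, the carrier of the sheddase ADAM17, rose by 0.14 ± 0.03 SE on the log2 scale, with 55.1 ± 2.11 CPM in vehicle and 60.6 ± 1.98 CPM in HDM libraries (edgeR adjusted p = 0.0293), higher in 6 of 6 numbers. *Aph1c*, a gamma-secretase subunit gene, fell from 62.9 ± 9.86 to 47.0 ± 6.45 CPM (-0.42 ± 0.11 SE, adjusted p = 0.0423), lower in 6 of 6. Its near-identical relative *Aph1b*, with which it could share reads, was at -0.03 ± 0.06 SE. *Psen2*, another subunit gene, was at -0.05 ± 0.05 SE (adjusted p = 0.845). The median of the list was -0.02.

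Both calls lay close to the threshold. *Rhbdf2* lost its call when the HDM library numbered 1, 3, 4 or 5 or the vehicle library numbered 1 or 4 was left out (adjusted p 0.055 to 0.0694). It also lost it with upper-quartile factors (0.088), with total library size (0.132) and with no filter (0.123). *Aph1c* lost its call when the HDM library numbered 1, 2, 3 or 4 or the vehicle library numbered 1, 3, 5 or 6 was left out (0.0527 to 0.0983). With 1 library left out the log2 fold change stayed between 0.12 and 0.15 for *Rhbdf2* and between -0.47 and -0.35 for *Aph1c*. With the block both were called (edgeR adjusted p = 0.00673 and 1.89e-07), where 14.7% of all tested genes were called.

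Genes of lipid-associated macrophages, a state that TREM2 is known to promote, had 0 calls among 26 tested, where 5.37% of all tested genes were called. There were also 0 at an unadjusted p under 0.05, 0 by DESeq2 and 0 by limma-voom. The smallest p belonged to *Plin2*, which encodes a lipid droplet coat protein, at 1620 ± 174 CPM with HDM and 1742 ± 203 CPM with vehicle (-0.10 ± 0.09 SE, adjusted p = 0.79), and to *Lipa*, the lysosomal lipase gene, at -0.03 ± 0.03 SE (adjusted p = 0.815). With the block 2 of the 26 were called, where 14.7% of all tested genes were called. *Plin2* was lower (-0.10, edgeR adjusted p = 0.00136) and *Csf1*, named after its value was seen, higher (0.25, adjusted p = 0.00174). The median of the list was 0.00.

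**Figure D4:**
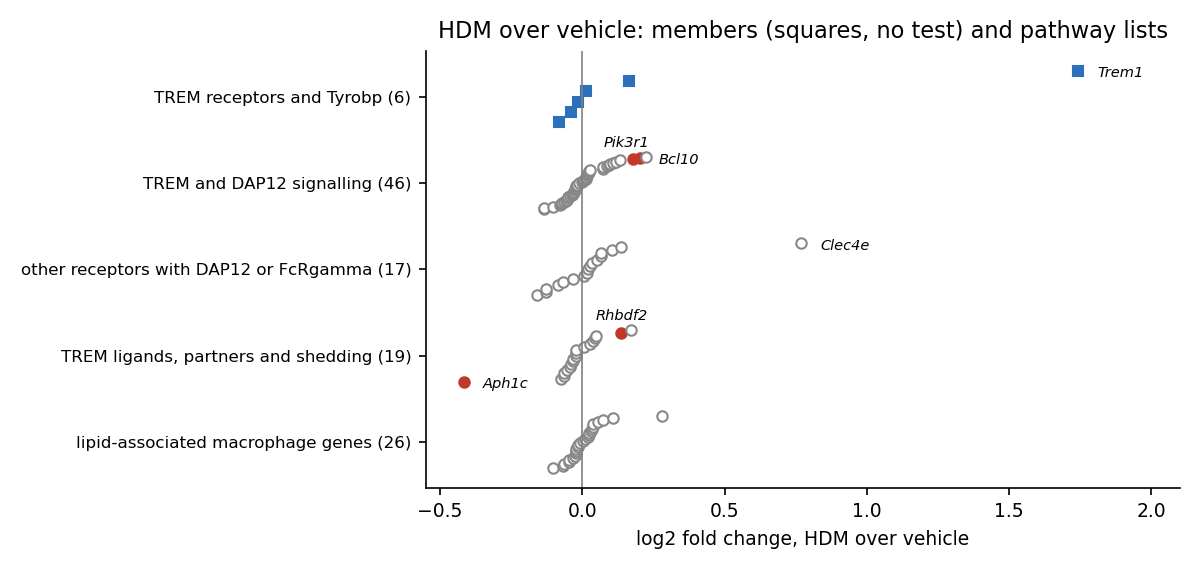
Log2 fold change, HDM over vehicle, of the TREM receptors and Tyrobp (squares, shown without a test) and of the tested genes of 4 lists (circles, filled red where edgeR's adjusted p was under 0.05, with the number of genes in brackets). Trem1 lies at 1.74, beyond every gene of the lists, of which Clec4e at 0.77 is the highest; Pik3r1, Bcl10, Rhbdf2 and Aph1c are the 4 called.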

How the data were processed

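RNA was column-purified with DNase treatment and made into stranded poly(A) libraries, per the labels' protocols. The authors deposited raw counts per gene symbol in 1 table. The submitters' processing notes name Trim Galore 0.6.10, STAR 2.6.0c and featureCounts 2.0.6, and the builds GRCm38 and mm39 without a role for either. The sources used here give neither the annotation nor the strand setting of counting, so reads of overlapping, antisense or near-identical genes may be shared.

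The counts were tested with edgeR 4.0.16 (R 4.3.3, limma 3.58.1, DESeq2 1.42.0): filterByExpr, TMM factors, a quasi-likelihood F test with treatment as the only term, two-sided, Benjamini-Hochberg adjustment over all 13530 genes, and calls at an adjusted p under 0.05. The SE is the log2 fold change divided by the root of F. Intervals use 10 residual degrees of freedom. The procedure was tested on simulated data with the same dispersion for every gene and no difference between library numbers. That simulation cannot show how the fits behave with the differences between numbers seen here. Members, lists, the rule for named genes and the alternatives were chosen with earlier results of these data known. Genes named are the 6 members, the 3 nearest profiles of each, up to 4 called and 2 uncalled genes of each list by smallest p, and Syk, Hcst and Fcer1g; 1 gene that the rule picks is not reported here. Deviations from the group means correlated across genes at 0.347 to 0.652 between HDM and vehicle libraries of equal number. All lay above the bound of 0.1 set for pairing, and the numbers were used as pairs. That bound cannot decide whether equal numbers are pairs. Some numbers stood apart from the rest in both treatments, which alone can give such correlations. In 4 of 6 numbers an HDM library matched another vehicle library better. Pairing by number is therefore an assumption of the block fits and of the counts over numbers.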

Additional observations from a re-analysis of the deposited data

Results flagged for a closer look

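Among the members and the named list genes, 44 groups of 6 libraries were examined for 1 library far from the rest, and chance alone flags about 1 in 20. *Bcl10* was at 59.4 CPM in HDM library 3, below the 63.9 to 66.1 CPM of the other HDM libraries. *Treml1* was at 2.03 CPM in HDM library 2, above the 1.16 to 1.47 CPM of the others. No library of the 6 members was set apart in this way.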

How the results depend on the processing

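The 6 log2 fold changes moved by less than 1 SD under every alternative run. That SD is the one of log2 CPM between libraries within groups, from 0.0424 for *Tyrobp* to 0.918 for *Treml2*. Alternatives were leaving out each library, leaving out numbers 5 and 6, the replicate block, upper-quartile factors, total library size, DESeq2, limma-voom and no filter. Leaving out 1 of 6 libraries can hardly move a group mean by such an SD, so those runs say little about stability. With 1 library left out, *Treml2* ran from -0.37 to 0.22. *Trem1* lay between 1.63 and 1.83. The signs of the small values of *Treml2*, *Treml4* and *Tyrobp* were not stable. With the replicate block the calls went from 727 to 1990 over all genes, from 2 to 9 in the signalling list, from 0 to 3 among the other receptors and from 0 to 2 among lipid-associated genes. The block changed no other count by over 1.5 times. It assumes that equal numbers pair HDM and vehicle libraries, which was not established. Without the libraries numbered 5 and 6 the signalling list had 4 calls and the other receptors 2. The shedding list had 1 call with upper-quartile factors, 1 with total library size, 1 with no filter and 0 to 2 with 1 library left out. With 1 library left out the calls over all genes ran from 561 to 694. With the shortest transcript as length, 4 of the 6 genes kept their place in the order of levels. The cause of these shifts was not tested. *Trem3*, *Treml2* and *Treml4* had 611 to 1070 reads each, so counting error adds to their spread.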
